A study of Mus musculus with 4 samples.

Results

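The carboxylesterase 2 and 3 genes of the mouse form a tandem cluster on chromosome 8, and their liver mRNA was examined here in F1 hybrids of the strains B6 and MSM. The members were chosen by gene name: Ces2a, Ces2b, Ces2c, Ces2e, Ces2g, Ces3a, Ces3b and Ces4a. Of these 8 names, 6 were among the 8797 genes listed for every mouse, and Ces2b and Ces4a were not listed. For all 6 the share of reads from the B6 copy was given in every mouse, as it was for 3632 of the 8797 genes. The values were made from liver mRNA of 4 female mice at 5 months of age. In the cross MSM mother x B6 father 2 animals were taken, and 2 in the reciprocal cross, B6 mother x MSM father. The parental strains are inbred and derive from different subspecies of the house mouse. Each mouse thus carried a B6 and an MSM copy of every autosome, and the crosses differed in which parent gave which copy. Whether MSM carries the same number of copies of each gene as B6 was not tested. Mice of the parental strains were not used here, and each cross is represented by 2 animals, so every test rests on 4 livers.

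Carboxylesterases are serine hydrolases that split ester, amide and thioester bonds. In hepatocytes they lie mostly in the lumen of the endoplasmic reticulum, where they hydrolyse drugs, environmental esters and neutral lipids. Rodents carry many tandem copies where humans have few: the mouse Ces2 genes correspond to human CES2, which activates the prodrug irinotecan, and Ces3a and Ces3b correspond to human CES3. Among the members, Ces2c hydrolyses acylglycerols and acylcarnitines, Ces2e is known as a pyrethroid hydrolase, and Ces3a is also known as esterase male, a form described as more abundant in male liver. All mice measured here were female.

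By GENCODE M21, which annotates mm10 (GRCm38), the 8 named genes span 416.1 kb, chr8:104734003-105150109, and all lie on the plus strand. The order of the listed members is Ces2a (ENSMUSG00000055730.16, chr8:104734003-104741634), Ces2c (ENSMUSG00000061825.10, chr8:104847068-104854483), Ces2e (ENSMUSG00000031886.14, chr8:104926260-104934672), Ces2g (ENSMUSG00000031877.9, chr8:104961718-104969537), Ces3a (ENSMUSG00000069922.12, chr8:105048601-105058413) and Ces3b (ENSMUSG00000062181.14, chr8:105083753-105093929). The transcripts with the longest coding part have 12 exons in the 4 listed Ces2 genes and 13 in Ces3a and Ces3b. The same transcripts are used below for sequence shared between genes. The same interval holds the pseudogene Ces2d-ps, Ces2f, which was not listed, and Ces2h, which was listed and is not a member.

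How close the copies are in sequence matters for reading values that were assigned gene by gene. The following stretches of exon 5 surround the codons of the catalytic serine, with those 6 codons (Gly-X-Ser-X-Gly-Gly) in capitals. They are reference sequence of the plus strand from GRCm38.p6, which is B6 sequence, and the MSM sequence was not used here.
Ces2a, chr8:104737386-104737451: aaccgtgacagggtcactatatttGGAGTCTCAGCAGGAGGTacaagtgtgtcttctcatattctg
Ces2c, chr8:104850744-104850809: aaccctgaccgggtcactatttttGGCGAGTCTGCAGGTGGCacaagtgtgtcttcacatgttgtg
Ces2e, chr8:104929791-104929856: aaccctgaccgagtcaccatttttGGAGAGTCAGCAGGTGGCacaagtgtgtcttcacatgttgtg
Ces2g, chr8:104964969-104965034: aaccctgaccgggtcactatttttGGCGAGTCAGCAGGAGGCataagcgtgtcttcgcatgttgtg
Ces3a, chr8:105051562-105051621: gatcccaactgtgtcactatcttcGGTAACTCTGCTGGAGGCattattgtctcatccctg
Ces3b, chr8:105086652-105086711: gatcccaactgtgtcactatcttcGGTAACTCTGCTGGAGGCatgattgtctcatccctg
The Ces3a and Ces3b stretches were identical at 59 of 60 bases (98.3%). Ces2c matched Ces2e at 62 of 66 bases (93.9%) and Ces2g at 61 of 66 (92.4%), whereas Ces2a matched each of these 3 at 54 of 66 (81.8%). Over whole transcripts, 30.9% of the 50-base words of Ces3a and 26.1% of those of Ces3b also occurred in a transcript of another gene, and all of these words of Ces3a lay in Ces3b. The share was 42.2% for Ces2c, mainly with Ces2d-ps, and 22.2% for Ces2a, mainly with the pseudogene Gm7208. It was 3.95% for Ces2g and 3.36% for Ces2e. At 150 bases, the length of a read, it fell to between 2% and 4.03% for Ces2a, Ces2c, Ces3a and Ces3b, and to 0 for Ces2e and Ces2g. The authors let the aligner report at most 1 place for a read, so reads from shared stretches of Ces3a, Ces3b, Ces2c and Ces2a are of uncertain origin, and their part in the values below was not tested.

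The 250 bases before the annotated start of 5 listed members are shown next, because these genes differed widely in level and in allele use. RefSeq tables of GRCm38.p6 gave such a window for 6 of the 8 members and for neither Ces2b nor Ces3a. All are plus-strand reference sequence. Capitals mark AACTTTGCCCC, or in Ces2g the shorter word ACTTTGCCC.
Ces2a, chr8:104733753-104734002: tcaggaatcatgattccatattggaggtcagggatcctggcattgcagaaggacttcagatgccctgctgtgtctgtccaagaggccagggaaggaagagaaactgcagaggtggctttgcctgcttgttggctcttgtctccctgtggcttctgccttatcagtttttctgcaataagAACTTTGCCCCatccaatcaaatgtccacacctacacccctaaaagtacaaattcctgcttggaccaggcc
Ces2c, chr8:104846818-104847067: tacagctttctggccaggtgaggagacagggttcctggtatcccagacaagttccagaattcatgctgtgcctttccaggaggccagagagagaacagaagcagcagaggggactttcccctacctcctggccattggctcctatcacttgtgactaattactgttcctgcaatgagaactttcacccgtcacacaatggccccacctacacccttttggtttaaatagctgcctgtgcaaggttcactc
Ces2e, chr8:104926010-104926259: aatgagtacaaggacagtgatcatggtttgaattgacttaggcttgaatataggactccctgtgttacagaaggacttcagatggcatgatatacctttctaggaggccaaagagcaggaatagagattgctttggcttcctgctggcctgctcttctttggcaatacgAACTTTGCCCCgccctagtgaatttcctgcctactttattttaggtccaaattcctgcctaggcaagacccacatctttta
Ces2g, chr8:104961468-104961717: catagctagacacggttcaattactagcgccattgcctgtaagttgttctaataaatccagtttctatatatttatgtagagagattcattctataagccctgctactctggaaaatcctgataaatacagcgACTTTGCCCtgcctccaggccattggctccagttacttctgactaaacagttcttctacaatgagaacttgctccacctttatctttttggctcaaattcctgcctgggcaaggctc
Ces3b, chr8:105083505-105083754: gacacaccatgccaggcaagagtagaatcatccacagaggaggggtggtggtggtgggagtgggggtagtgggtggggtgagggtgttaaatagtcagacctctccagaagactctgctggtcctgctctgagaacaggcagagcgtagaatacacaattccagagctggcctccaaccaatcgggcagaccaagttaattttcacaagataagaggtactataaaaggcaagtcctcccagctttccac
The 11-base stretch AACTTTGCCCC was the longest shared by at least 3 of the Ces2 windows and was picked after the sequences were seen. It occurred in Ces2a, Ces2e and Ces2f, starting 71, 81 and 93 bases before the start, and on either strand in 6 of all 32817 promoter windows of this length (0.0183%). The shorter ACTTTGCCC, contained in it, also occurred in Ces2g, 117 bases before the start, and on either strand in 73 of all windows (0.222%). Neither was in the Ces2c window. The windows were not aligned, so equal letters need not be the same site in each gene. On either strand, the TATA box TATAAA occurred in Ces3b alone of the 8 windows of the cluster (12.4% of all windows). CCAAT on either strand occurred in Ces2a, Ces2c, Ces2g, Ces2h and Ces3b (33.8% of all windows). In Ces2c and Ces2g it was present only as its reverse complement, ATTGG. These are matches of letters in the reference sequence. No data on binding at them were used here.

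Expression was given in FPKM, the number of mapped fragments scaled to transcript length and to the fragments of the library, so levels can be set side by side between genes on this scale. Ces3a was by far the most expressed member. Its FPKM in MSM-mother mice was 501 (replicate 1) and 434 (replicate 2), and in B6-mother mice it was 576 and 515 in the same order (506 ± 58.2, mean ± SD, n = 4). It alone made up 55.2 to 61.7% of the summed FPKM of the 6 members in each mouse. Ces3b, its neighbour and closest relative, stood at 143 and 109 in MSM-mother mice and at 151 and 108 in B6-mother mice (128 ± 22.5). Replicate 1 was above replicate 2 in both crosses for Ces3a and Ces3b, and the crosses overlapped for Ces3b but not for Ces3a.

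Ces2a was the most expressed Ces2 gene, with FPKM of 119 and 103 in MSM-mother mice, against 106 and 126 in B6-mother mice (113 ± 10.9, n = 4). Ces2e, the pyrethroid hydrolase, had 107 and 75.1 in the former and 69.5 and 56.1 in the latter (76.9 ± 21.6). Ces2g, a less studied paralog, had 21.8 and 21.1 against 25.7 and 22.6 (22.8 ± 2.02). Ces2c, the acylglycerol hydrolase best known from intestine, was lowest, with 15.1 and 8.51 against 9.48 and 7.12 (10.1 ± 3.52), near the median of 11.5 over all listed genes. Ces2c and Ces2e varied most between mice, with highest-to-lowest ratios of 2.13 and 1.91, and Ces2a and Ces2g least, with 1.22 each.

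**Figure D1:**
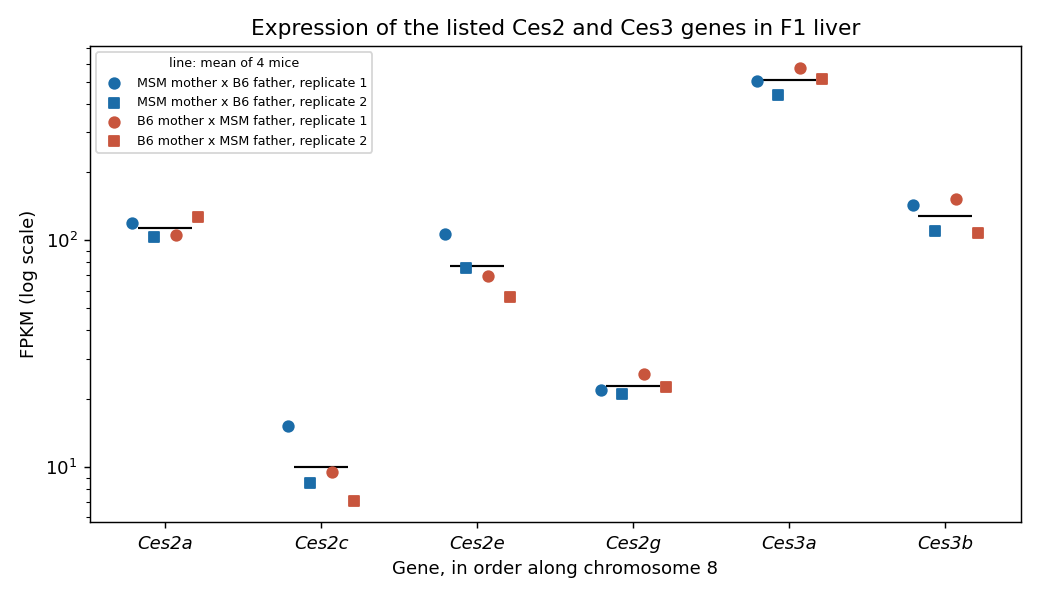
Expression of the 6 listed Ces2 and Ces3 genes in FPKM on a log axis, 1 point per mouse, with circles for replicate 1 and squares for replicate 2, blue for an MSM mother and red for a B6 mother, and a line at the mean of 4 mice. Ces3a sits between 434 and 576 in every mouse, above all points of the other members, and Ces2c sits lowest, between 7.12 and 15.1.

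In the order of mean levels, Ces3a was above Ces3b in all 4 mice, by 3.96-fold, with no overlap. Ces3b and Ces2a could not be separated: the ratio of their means was 1.13, Ces3b was higher in 3 of 4 mice, and their ranges overlapped. Ces2a was above Ces2e in each of the 4 mice, with a ratio of means of 1.47, although their ranges overlapped. Ces2e exceeded Ces2g by 3.38-fold and Ces2g exceeded Ces2c by 2.26-fold, without overlap in either case. The summed FPKM of the 6 members was 857 ± 82.8, of which the 2 Ces3 genes gave 634 ± 75.5 and the 4 Ces2 genes 223 ± 26.3. For comparison, the 6 listed genes of the Ces1 cluster, which lies more proximally on the same chromosome and includes the secreted plasma esterase Ces1c, summed to 3180 ± 336.

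The B6-allele frequency, which divides the reads assigned to the B6 copy by those assigned to either, addressed whether both copies were used equally. A value of 0.5 means equal use. The members did not share a direction. Ces2a mRNA came mostly from the B6 copy, Ces2c, Ces2e and Ces3b leaned to B6 by smaller amounts, Ces2g was near equality, and Ces3a leaned to MSM. In the limma test of the mean of both crosses against equality, with Benjamini-Hochberg adjustment over all 3632 genes, 5 of the 6 members were called, where 36.2% of all genes were. Of these 5, 4 were called toward B6, as 22.6% of all genes were, and 1 toward MSM, as 13.6% were. The median mean frequency was 0.622 over the members and 0.510 over all genes, and the median size of the log2 odds was 0.82 over the members and 0.24 over all genes.

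Ces2a had a frequency of 0.923 and 0.912 in MSM-mother mice and of 0.922 and 0.918 in B6-mother mice. All 4 mice lay far above 0.5 (mean 0.919 ± 0.00495, SD, n = 4). A fraction near 1 has little room to vary, and in log2 odds the SD of Ces2a over the mice was 0.095, against 0.064 for Ces2e. On the scale of log2 odds, Ces2a stood at 3.50 (SE 0.06, limma adjusted p = 0.000555), which is an 11.3-fold excess of B6 over MSM reads with a range over the mice from 10.4 to 12.0. A higher mean frequency was found for 23 of the 3632 genes. Ces2a was also the only member past the thresholds of 0.8 for B6-biased and 0.2 for MSM-biased genes, which 1.84% and 1.35% of all genes passed.

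Ces2c was next, with frequencies of 0.734 and 0.664 in MSM-mother mice and 0.786 and 0.658 in B6-mother mice (0.710 ± 0.0610). It was above 0.5 in all mice but was the most variable member, and its log2 odds of 1.31 had an SE of 0.21 (limma adjusted p = 0.0238). Ces2e had 0.626 and 0.638 against 0.651 and 0.633 (0.637 ± 0.0103), which is 0.81 in log2 odds (SE 0.05, limma adjusted p = 0.00491). Its FPKM ranged over 1.91-fold between the same mice, while its frequency lay between 0.626 and 0.651. Ces2g, with 0.543 and 0.532 against 0.518 and 0.488 (0.520 ± 0.0240), lay above 0.5 in 3 mice and below it in 1. Its log2 odds of 0.12 (SE 0.05) did not pass the test (limma adjusted p = 0.184).

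The Ces3 genes, which are near-identical around the active site shown above, leaned to opposite alleles. Ces3a had frequencies of 0.391 and 0.360 when MSM was the mother and of 0.355 and 0.334 when B6 was (0.360 ± 0.0238). Every mouse was below 0.5, its log2 odds were -0.83 (SE 0.06, limma adjusted p = 0.00651), and MSM reads were 1.78 times as frequent as B6 reads, with a range from 1.56 to 2.00. Ces3b had 0.649 and 0.622 against 0.591 and 0.568 (0.607 ± 0.0355), above 0.5 in every mouse and 0.63 in log2 odds (SE 0.06, limma adjusted p = 0.00936). Within each mouse the log2 odds of Ces3b exceeded those of Ces3a by 1.46 ± 0.08 (SD, n = 4). Reads moved between these 2 genes by ambiguous alignment would enter both of their frequencies, and the size of that exchange was not tested.

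The calls differed in how they held when a mouse was left out, which leaves 3 livers for the test. Ces2a kept its call without any single mouse (limma adjusted p from 0.0105 to 0.0202). Ces2c lost its call without any of the 4 mice (0.0593 to 0.0998). Ces2e and Ces3a lost theirs without either B6-mother mouse: the adjusted p was 0.0540 and 0.0517 for Ces2e, and 0.0584 and 0.0607 for Ces3a, without replicates 1 and 2. Ces3b lost its call without MSM-mother replicate 1 (0.0535) and without B6-mother replicates 1 (0.0730) and 2 (0.0668). The direction of these 5 genes stayed the same in all of these fits, and over all genes the calls fell from 1316 to between 181 and 514.

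**Figure D2:**
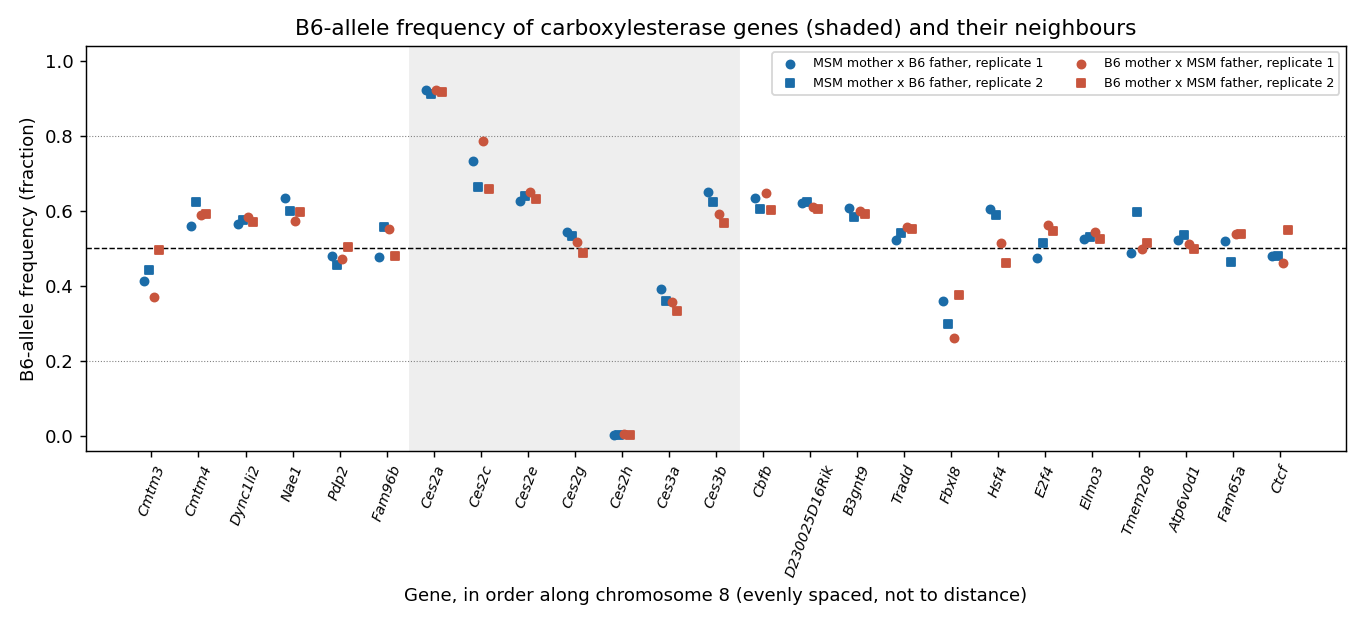
B6-allele frequency (fraction) of the 6 members and Ces2h, shaded, and of the 18 genes with a frequency within 500 kb, in chromosomal order with 1 point per mouse (circles replicate 1, squares replicate 2, blue MSM mother, red B6 mother). The dashed line is equal use at 0.5 and the dotted lines are 0.8 and 0.2; Ces2a lies above 0.9 and Ces2h near 0 in all 4 mice, and the flanking genes have means from 0.323 to 0.622.

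The order of allele use among the members was nearly the same in every liver. Of the 15 pairs of members, 14 had the same order in all 4 mice and ranges that did not overlap. The exception was Ces2e with Ces3b, whose log2 odds differed by 0.18 ± 0.25 and whose order turned in 1 mouse (exact sign-flip permutation test, two-sided p = 0.375, also after adjustment). For the other pairs the exact sign-flip p was 0.125, the smallest that 4 mice can give, and 0.134 after adjustment over the 15 pairs, so no pair could pass the threshold in this design. The widest gap was between Ces2a and Ces3a, 4.33 ± 0.14 in log2 odds, and the next step down from Ces2a, to Ces2c, was 2.19 ± 0.37. Of the pairs without overlap, Ces2c with Ces2e differed least, by 0.50 ± 0.41.

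**Figure D3:**
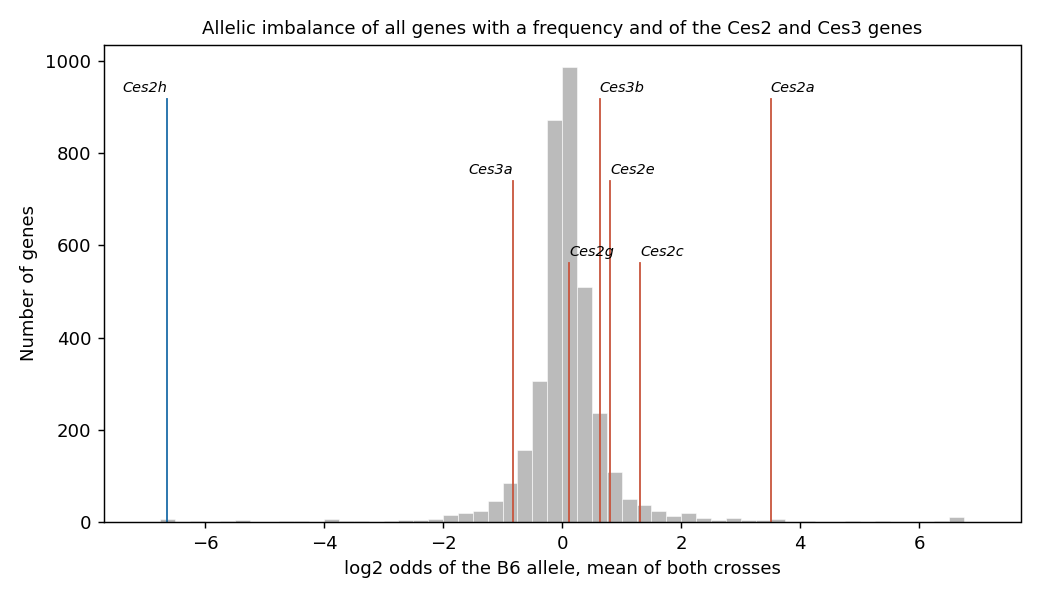
Number of genes (grey bars, 3632 in all) by log2 odds of the B6 allele, as the mean of both crosses after frequencies were limited to 0.01 to 0.99, with vertical lines at the 6 members (red) and at Ces2h (blue). Most genes lie near 0, and the members spread from -0.83 (Ces3a) to 3.50 (Ces2a), with Ces2h at -6.63, where the limit of 0.01 applies in every mouse.

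Multiplying FPKM by the frequency or by its complement gives the expression assigned to each copy. For Ces2a this was 104 ± 10.2 FPKM from the B6 copy and 9.19 ± 0.888 from the MSM copy (n = 4). Ces3a had 182 ± 22.1 from B6 and 324 ± 41.3 from MSM, so its less used copy was still above both copies of every other member. Ces3b had 77.8 ± 15.6 and 49.99 ± 8.71, and Ces2e 48.9 ± 13.2 and 28.0 ± 8.41. Ces2g had 11.8 ± 1.03 and 10.9 ± 1.23, and Ces2c 7.22 ± 2.83 and 2.84 ± 0.864. The opposite leanings of the members offset each other in their sum. The B6 share of the summed FPKM was 0.772 ± 0.0125 over the 4 Ces2 members, 0.410 ± 0.0306 over the 2 Ces3 members, and 0.504 ± 0.0266 over all 6. Ces2h, at 18.7 FPKM and almost wholly from MSM, is not a member and is left out of these shares.

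**Figure D4:**
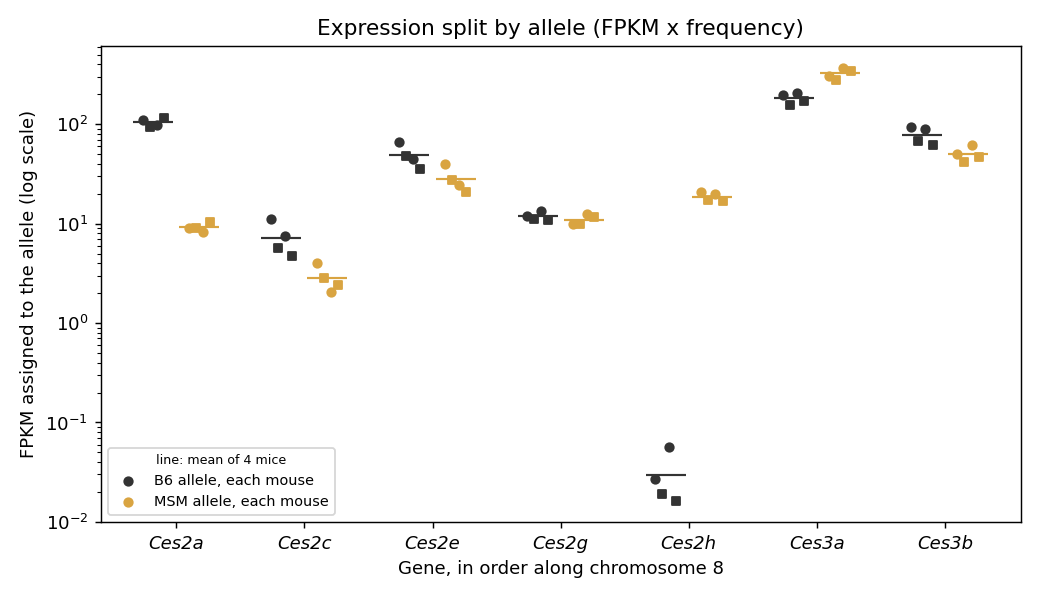
FPKM assigned to the B6 copy (dark) and to the MSM copy (yellow) on a log axis, as FPKM multiplied by the frequency or by its complement, 1 point per mouse (circles replicate 1, squares replicate 2) and a line at the mean. Ces2a is far higher from B6, Ces3a higher from MSM, the copies of Ces2g are level, and Ces2h is almost wholly from MSM.

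Ces2h, which lies between Ces2g and Ces3a at chr8:105000853-105021178 and was not in the list of members, stood at the opposite end. Its FPKM was 20.7 and 17.2 in MSM-mother mice, against 20.01 and 16.99 in B6-mother mice (18.7 ± 1.92). Its frequency was 0.00130 and 0.00110 against 0.00282 and 0.000964, so almost no reads were assigned to B6 in any of the 4 mice. Only 4 of the 3632 genes had a lower mean frequency. Of its 50-base words 0.167% were shared with other genes. Thus Ces2a and Ces2h, genes of the same tandem array, lay near the 2 extremes of allele use, and Ces2g, between them, near the middle.

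The genes around the cluster varied less. Within 500 kb of its ends 18 genes had a frequency, with means from 0.323 to 0.622 and a median of 0.527. Of these 18, 7 were called toward B6, where 22.6% of all genes were, and 1 (Fbxl8) toward MSM, where 13.6% were. The other 10 were not called. The median size of the log2 odds of the 18 genes, 0.24, equalled that of all genes. On the side of Ces2a, the nearest were Fam96b at 92.3 kb (mean frequency 0.516), Pdp2 at 135 kb (0.477) and Nae1 at 199 kb (0.6001). On the other side were Cbfb at 20.6 kb (0.622, log2 odds 0.72, SE 0.08, limma adjusted p = 0.0116), D230025D16Rik at 75.0 kb (0.615) and B3gnt9 at 103 kb (0.595). Ces2a, Ces2c and Ces2e were above the highest of these 18 means, and Ces3a lay below all of them but that of Fbxl8.

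The reciprocal crosses addressed whether the frequency went with the mother rather than with the strain. It did not pass the test for any member: 0 of 6 were called by limma, also at an unadjusted p under 0.05, where 0.0826% of all genes were called after adjustment and 5.23% before it. The largest difference was that of Ces3b, 0.635 with an MSM mother and 0.579 with a B6 mother (0.34 in log2 odds, SE 0.12, limma adjusted p = 0.873). The exact permutation test of 2 mice against 2 cannot give a p under 0.333. Ces2g, Ces3a and Ces3b had no overlap between the crosses and were higher with an MSM mother, which is 3 of 6 members where 18.4% of all genes were so and 34.3% had no overlap in either direction. Their differences of the mean frequency were 0.0349, 0.0314 and 0.0561. The difference was -0.00193 for Ces2a, -0.0230 for Ces2c and -0.00923 for Ces2e, each with overlap between the crosses. For Ces2a the mean was 0.920 with a B6 mother and 0.918 with a B6 father.

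The level of expression was compared between the crosses as well. No member passed the limma test on log2(FPKM + 1), with or without adjustment, where 0.0455% and 8.87% of all 8797 genes did. Ces2e came nearest, with a mean FPKM of 91.0 with an MSM mother and 62.8 with a B6 mother (log2 difference 0.52, SE 0.22, limma adjusted p = 0.5697). Ces2c was 11.8 against 8.30 (0.43, SE 0.27, adjusted p = 0.641). Ces3a was 467 against 545 (-0.22, SE 0.18, adjusted p = 0.690) and Ces2g 21.4 against 24.1 (-0.16, SE 0.12, adjusted p = 0.685). Ces2a and Ces3b differed by -0.06 (SE 0.17) and -0.03 (SE 0.23). The crosses did not overlap for Ces2e (higher with an MSM mother, as for 23% of all genes) nor for Ces2g and Ces3a (higher with a B6 mother, as for 19.4%), and 42.4% of all genes had no overlap in either direction.

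Markers of other cell types were followed beside these levels. In whole liver, fewer cells of a type and less RNA per cell cannot be told apart. The summed FPKM of the listed Kupffer cell markers (4 of 5 listed) was 101 to 110 with an MSM mother and 133 to 143 with a B6 mother, and that of the sinusoidal endothelium (5 of 5) 99.2 to 108 and 113 to 119. The hemoglobin genes (3 of the 4 blood markers) summed to 122 to 302 and to 444 to 761. Of the genes chosen as markers of small intestine, where Ces2 genes are also known to be active, Lct and Sis were not listed. Vil1, Fabp2 and Apoa4 summed to 276 to 335 with an MSM mother and to 157 in both mice with a B6 mother. Whether this mRNA came from liver cells was not tested, so the sum was no measure of intestinal tissue. Stellate cell markers (3 of 4) went the other way from those of Kupffer cells and endothelium, with 112 to 128 with an MSM mother and 90.6 to 109 with a B6 mother. No marker of cholangiocytes, kidney or adipocytes was listed, and the pancreatic Cela1 stood at 10.6 to 13.5, with overlap between the crosses. Hepatocyte markers (5 of 6, Alb was not listed) were abundant, with 15610 to 15980 FPKM in sum with an MSM mother. With a B6 mother the sum was 16097 to 22057. Cyp2e1, which hepatocytes use widely, was listed at 0 in 2 mice. These sums include it, so they are no measure of a difference between the crosses. The part of the cell types named here in the members' values was not tested.

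Over the whole data set the FPKM of the listed genes summed to between 529024 and 671875 per mouse, the r of log2(FPKM + 1) across genes was 0.961 to 0.978 for pairs of mice, and the median frequency of a mouse was 0.509 to 0.512. Frequencies were concentrated on genes beyond 100 Mb of a chromosome (10 Mb on chromosomes 16 to 19), where 3527 of 3929 genes had one, against 105 of the other 4868. The cluster lies beyond that coordinate and the Ces1 genes do not. Of the Ces1 genes only Ces1c had a frequency (0.5 and 0.667 against 0.333 and 0.778, limma adjusted p = 0.571). Read numbers are not part of the tables used here. The depth under an FPKM or a frequency is therefore not given, and the spread between mice is the measure of precision used here. The frequencies of Ces1c equal ratios of small whole numbers in all 4 mice. So do those of Cebpa, 0.667 and 1 in MSM-mother mice against 0.667 and 0.5 in B6-mother mice. A few reads assigned to an allele would give such values, whatever the FPKM.

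Among 40 other carboxylesterases, lipases and hydrolases, 32 were listed and 9 had a frequency. 1 of these was called toward B6, as 22.6% of all genes were, and 1 toward MSM, as 13.6% were. The other 7 were not called. The gene called toward B6 was Faah, the fatty acid amide hydrolase, with a frequency of 0.557 ± 0.0141, or 0.33 in log2 odds (SE 0.05, limma adjusted p = 0.0230). The gene called toward MSM was Ces2h. The 7 include Ces1c, whose frequency varied widely between mice (SD 0.194), so the lack of a call does not show equal use. The median size of the log2 odds of the 9 genes was 0.23, and none of the 32 passed the expression test between the crosses. The other listed genes of the carboxylesterase family were the plasma esterase gene Ces1c (2353 ± 293 FPKM), Ces1f (322 ± 50.7), the triacylglycerol hydrolase gene Ces1d (264 ± 37.8), Ces1g (97.3 ± 9.75), Ces1e (72.3 ± 10.3), Ces1b (70.9 ± 8.29) and the pseudogene Ces2d-ps. Ces2d-ps stood at 5.91 and 3.48 in MSM-mother mice, against 3.45 and 2.78 in B6-mother mice. Its highest mouse and its lowest were those of Ces2c, Ces2e and Ces2h.

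Carboxylesterase genes are known to respond to the xenobiotic receptors encoded by Nr1i2 (PXR) and Nr1i3 (CAR) and to depend on hepatocyte factors such as Hnf4a. Of the regulators reported here, Hnf4a was called toward B6 (0.542, log2 odds 0.24, SE 0.04, limma adjusted p = 0.0300), while Nr1i2 (0.467), Cebpa (0.708 ± 0.2097) and Foxa2 (0.478) were not called. None of these, nor Nr1i3, passed the expression test between the crosses.

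By the Euclidean distance of log2(FPKM + 1), centred on its mean over the 4 mice, the genes whose pattern over the mice was most like the summed FPKM of the members were Tmem19 (0.0182), Sdc1 (0.0229) and Abhd14a (0.0241). With 4 mice such likeness is common: 1082 of the 8791 genes compared were nearer than 0.2.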

How the data were processed

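Liver mRNA of 4 F1 mice was used, grouped by the parents given in the sample labels. The authors deposited an FPKM value and a B6-allele frequency, a fraction from 0 to 1, for each gene and mouse. They made directional poly(A) libraries, used Trim Galore! for trimming, Tophat2 for alignment to SNP-masked mm10, SNPsplit to part the alleles and Cuffdiff to count. Versions and the gene annotation are not given in the sources used here.

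Frequencies were limited to 0.01 to 0.99, turned into log2 odds and tested with limma 3.58.1 in R 4.3.3. The model held an intercept, the average of the crosses, which was set against 0, and a term for the cross. By empirical Bayes, the spread of each gene between mice was drawn toward that of all genes tested. For Ces2h, which the limit of 0.01 holds at the same value in every mouse, the spread comes from other genes alone. Expression was tested with limma with a variance trend on log2(FPKM + 1), keeping genes whose mean FPKM reached 1, a scale that understates changes of low genes. Tests were two-sided, adjusted by Benjamini-Hochberg over all genes, at a threshold of 0.05. The limma tests were also run on simulated data. The planted effects were larger than those of every member between the crosses, and of every member but Ces2a for imbalance. That run does not show whether effects as small as those of the members would be found. Other steps used Python 3.11.15 (numpy 2.4.6, pandas 2.3.3, scipy 1.17.1, matplotlib 3.10.9). Positions came from GENCODE M21 and promoters from RefSeq.

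The members, lists and tests were chosen with earlier results of these data known. Named genes are all listed members and Ces genes, the 3 most expressed other hydrolases called toward each allele, regulators with a frequency (a gene that this covers is not reported here), the 3 nearest neighbours on each side and the 3 genes of most similar pattern; Fbxl8, Ces2d-ps values by mouse and the shared promoter stretch were chosen after values were seen. Other limits, scales, filters, centrings, pseudocounts, normalizations, a block for the replicate number and leaving out each mouse were the alternatives.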

Additional observations from a re-analysis of the deposited data

How the results depend on the processing

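With other limits, scales, filters, centring, variance trend or a replicate block, 5 members were called imbalanced, as in the reported test. Leaving out each mouse in turn gave 1 to 4 members: 3 without MSM mother x B6 father replicate 1, 4 without its replicate 2, and 1 (Ces2a) without replicate 1 or 2 of B6 mother x MSM father, with 181 to 514 calls over all genes in place of 1316. Such a fit has 1 mouse in a cross, which is assumed to vary like the others. Over the 66 values of the members, 55 kept their direction and their side of the threshold and 11 lost the call, all of the 11 with a mouse left out. Thresholds of 0.7 and 0.3 gave 2 biased members (Ces2a and Ces2c) in place of 1. No member differed between the crosses in frequency or in FPKM under any alternative run. The sign of differences near 0 turned for some genes with a mouse left out. In log2 odds of the frequency, the difference between the crosses ran from -0.14 to 0.070 for Ces2a and from -0.65 to 0.28 for Ces2c, and was above 0 without MSM mother x B6 father replicate 2 and without B6 mother x MSM father replicate 1. In log2 expression it ran from -0.19 to 0.066 for Ces2a, above 0 without replicate 2 of either cross, and from -0.27 to 0.21 for Ces3b, above 0 without MSM mother x B6 father replicate 2 and without B6 mother x MSM father replicate 1. The number of member pairs with the same order was 14 to 15 with a mouse left out. With the replicate number as a block, 5 members were called imbalanced and 0 differed between the crosses in frequency or FPKM, with 775 imbalance calls over all genes and 285 expression calls in place of 4. Scaling FPKM to an equal sum gave 20 such calls. Deviations of mice with the same number correlated with r = 0.146 for log2 odds and 0.00375 for log2(FPKM + 1) across genes, and nothing in the labels ties the numbers to a litter or day. All listed genes passed the filter on FPKM, so that dropping it changed nothing. The effect of depth was not tested, because read counts are not part of the tables used.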

Other observations

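Ces2g, Ces3a and Ces3b shared the order of the mice in B6-allele frequency. In each of these 3 genes the frequency was highest in MSM-mother replicate 1, then in MSM-mother replicate 2, then in B6-mother replicate 1, and lowest in B6-mother replicate 2. This order was found in 183 of the 3632 genes (5.04%), and it was noticed after the values were seen. Ces2a, Ces2c and Ces2e each had another order. The B6 share of the summed FPKM over the 2 Ces3 genes followed the same order, from 0.449 to 0.374. That of the 4 Ces2 genes ran the opposite way, from 0.760 to 0.788, although none of them had this opposite order in its frequency. The share weights each frequency by FPKM. Ces2a stood at 119 and Ces2e at 107 FPKM in MSM-mother replicate 1, against 126 and 56.1 in B6-mother replicate 2.

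Levels of Ces2c, Ces2e and the pseudogene Ces2d-ps were highest in MSM-mother replicate 1 and lowest in B6-mother replicate 2. Their highest-to-lowest ratios were 2.13, 1.91 and 2.13. Ces2h, with 0.167% of its 50-base words shared, was also highest (20.7 FPKM) and lowest (16.99 FPKM) in these mice. The full order of the mice in Ces2c and Ces2h was found in 3.02% of all 8797 genes. That in Ces2e and Ces2d-ps was found in 4.30%. Ces2c and Ces2d-ps share 38.2% of the 50-base words of the Ces2c transcript, and how reads were divided between them was not tested. The frequency of Ces2e was lowest, 0.626, in the mouse with its highest FPKM, and was 0.633 in the mouse with its lowest.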
